A study of Mus musculus with 70 samples.

Results

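The genes described here are the Wnt ligands, their receptors and the nuclear effectors of their pathway in the mouse brain. They were chosen by symbol alone from 34677 genes, and 37 matched. These were 19 Wnt ligands, 10 frizzled receptors (Fzd), the co-receptors Lrp5 and Lrp6, the 4 TCF/LEF transcription factors (Tcf7, Tcf7l1, Tcf7l2 and Lef1) and the scaffold genes Axin1 and Axin2. Their mRNA was measured in 70 libraries, the brain ones from C57BL/6NTac animals (adults all male) and the cultured ones from C57BL/6 cells, of which 57 came from 18 adult regions at P56, 9 from 4 regions of the E14.5 embryo and 4 from mouse embryonic stem cells (mESC). The adult regions were the frontal pole (FRP), anterior cingulate (ACA) and entorhinal (ENT) cortex, the nucleus accumbens (ACB), the ventral tegmental area (VTA), and the arcuate (ARH), dorsomedial (DMH), lateral (LHA), paraventricular (PVH) and ventromedial (VMH) hypothalamus. They also included the dorsal vagal complex (DVC), the parabrachial nucleus (PB), the nucleus of the solitary tract (NTS), 4 parts of the cerebellar cortex (CENT2, CUL4,5, UVU and FL) and the cerebellar nuclei (CBN). The embryonic regions were the terminal and peduncular hypothalamus (THy/PHy), the forebrain (F), the midbrain (M) and the hindbrain (H). A group had 2 to 4 libraries, apart from F with 1. Brain libraries were made from punches pooled over several mice, except 1 ACB library, so the spread between replicates is a spread between pools, and the p-values refer to that spread. Punches of different regions came from a shared, small set of animals, so libraries of different regions can share mice, which the model treats as independent. The mESC lines B6-1 and B6-2 are 1 clone each, maintained on irradiated fibroblast feeder cells. Before collection they were passaged on gelatin to remove the feeders. The medium of that step held fibroblast-conditioned medium, LIF, the GSK3 inhibitor CHIR-99021 and the MEK inhibitors PD0325901 and CI-1040. Inhibition of GSK3 turns on Wnt/β-catenin signalling, so mESC values are those of cells under a chemical Wnt stimulus in all 4 libraries. The study lists adult, embryonic and mESC samples under separate sample batches without naming the library of each, so the effects of stage and of batch cannot be told apart.

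Wnt proteins are secreted, lipid-modified ligands that bind a frizzled receptor, with Lrp5 or Lrp6 as co-receptor where the signal runs through β-catenin. Without a ligand, Axin, APC and GSK3 mark β-catenin for breakdown, and with one, β-catenin reaches the nucleus and acts through TCF/LEF factors on targets such as Axin2, a feedback inhibitor used as a reporter of the pathway. In the embryonic brain, Wnt1 and Wnt3a pattern the dorsal midline and the midbrain-hindbrain border, and in the adult brain Wnt ligands act in synapse formation, vessel maintenance and neurogenesis. In bulk tissue, fewer cells of a type and less RNA per cell cannot be told apart.

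Levels are in TPM, estimated transcript abundance scaled by transcript length and by the library total, which allows comparison between genes, and differences are log2 fold changes of estimated counts from a single edgeR model of all 70 libraries. In that model regions were weighted equally on the log scale, so a fold change compares geometric means and can differ in sign from the arithmetic means of TPM given beside it. Values in parentheses after a gene are such log2 fold changes, with ± for the SE. A member was called higher or lower at an adjusted p under 0.05 with a log2 fold change above 1 in size. All 37 members passed the filter on low counts, among 19980 genes tested. Total counts per library lay between 9074581 and 22229582. In the first VTA replicate, mitochondrial transcripts held 39.6% of the TPM (the median over libraries was 7.49%), and its summed Wnt level was the lowest of all brain libraries. All markers checked for VTA, ACB, ARH, LHA, cortex, cerebellar cortex and mESC were highest in the labelled area. For PVH the markers disagreed, since Oxt was highest there, at 1264 TPM, whereas Sim1, a defining gene of this nucleus, had a mean of 3.96 TPM in PVH and 4.17 TPM in DMH. The other PVH marker, Avp, was highest in ARH, at 865 TPM, against 645 TPM in PVH. Together, the PVH markers summed to 677 and 3150 TPM in PVH, 807, 2520 and 342 TPM in ARH and 1012 and 62.3 TPM in VMH. The 4 pluripotency markers summed to 1818 to 1926 TPM in mESC. Markers of neighbouring tissue stood out in some punches. The sum of 5 thalamus markers was 745 and 618 TPM in the PVH libraries, 271 to 596 TPM in DMH, 95.1 to 293 TPM in LHA, and at most 158 TPM in any other adult library. All 5 were above 0 in every group. The LHA markers Hcrt and Pmch, at 1446 and 4539 TPM in LHA, were at 799 and 3525 TPM in VMH. The 5 choroid plexus markers summed to 12750, 3540 and 5419 TPM in CBN, 10710, 12.6, 6.53 and 5.66 TPM in NTS and 601, 1104 and 2028 TPM in H.

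Lrp, TCF/LEF and Axin genes were expressed in every group, at means of 1 TPM or more, and 8 to 10 of the 10 frizzleds reached that level in each brain region. The Wnt ligands differed in how widely they were expressed. Wnt2b, Wnt4, Wnt5a, Wnt7a and Wnt7b reached 1 TPM in all 22 brain regions, and Wnt3a did so in 2, Wnt10b in 1 and Wnt8a in 0. All 10 Fzd, both Lrp, all 4 TCF/LEF and both Axin genes reached a mean of 5 TPM in at least 1 group, and Lrp6 and Axin1 did so in every group. Of the 19 Wnt genes, 13 reached 5 TPM in a group, 18 reached 1 TPM and 0 reached 1 TPM in all 24 groups. Wnt8a stayed below 1 TPM everywhere, with its highest mean of 0.656 TPM in mESC B6-1. The number of Wnt genes with a mean of at least 1 TPM was 7 to 12 per brain region, with PVH, DMH and H at 12, and 1 and 0 in the mESC lines.

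**Figure D1:**
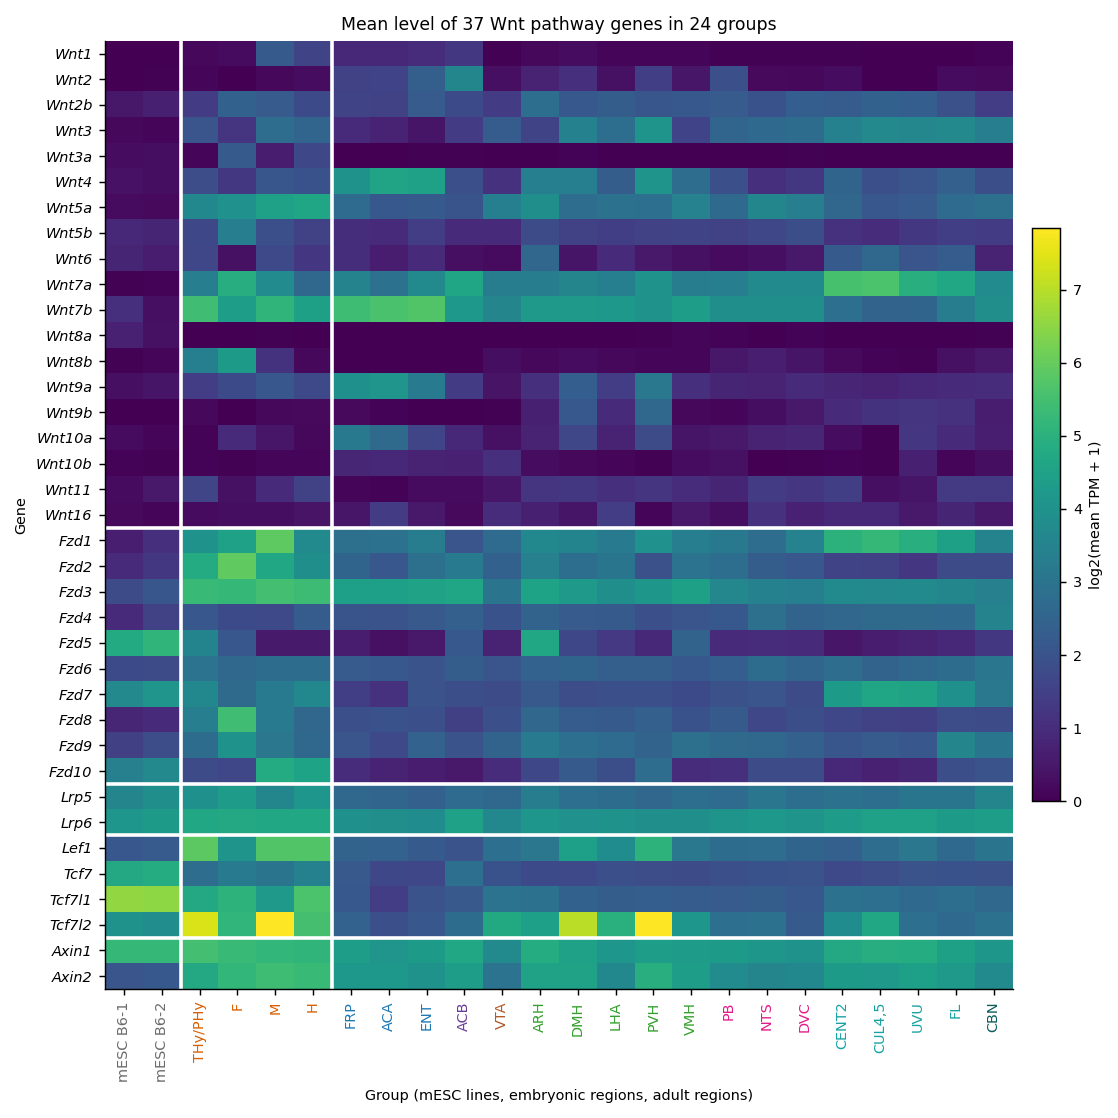
Mean level of the 37 genes (rows, grouped by class) in the 24 groups (columns, from mESC through embryonic to adult regions), as log2(mean TPM + 1). Most frizzled, Lrp and Axin genes are coloured in every column, while Wnt genes are dark in both mESC columns and many of them are bright in few columns.

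Among the ligands, Wnt7b and Wnt7a were the most abundant, and they were highest in different parts of the adult brain. Both act on the blood vessels of the brain, and Wnt7a also acts in granule cell synapses of the cerebellum. Wnt7b was at 45.5, 54.1 and 55.8 TPM in ENT, 44.2, 49.9 and 47.1 TPM in ACA and 46.6, 39.1 and 38.6 TPM in FRP. In the 15 libraries of cerebellar cortex it was at 3.95 to 9.47 TPM (median 5.44). The cortical libraries were all above every other adult library. Wnt7a showed the opposite order, with 46.5, 44.4, 46.97 and 55.6 TPM in CUL4,5 and 38.2, 35.5, 45.4 and 65.3 TPM in CENT2, against 6.33, 5.79 and 8.30 TPM in ACA. Of the other adult regions, ACB came closest to the cerebellum, with 18.2, 32.5 and 20.9 TPM, which overlapped the values of FL. Over the 18 adult region means, Pearson's r between log2(TPM + 1) of both genes was -0.72, a description over regions that share library preparation and scaling. One of these genes was the leading ligand in every brain region except H, VTA and PVH. Wnt7b made up 39.8% to 46.2% of the summed Wnt TPM in the cortical regions and Wnt7a 35.2% to 56.9% in the cerebellar cortex.

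Most of the remaining ligands were high in a few regions, whereas Wnt5a reached a mean of 5 TPM in 17 groups and Wnt3 in 11. Wnt4, a ligand studied mainly in kidney and gonad development, was at 20.7, 24.97 and 22.2 TPM in ACA, 19.9, 23.4 and 20.8 TPM in ENT and 17.3, 17.7 and 10.7 TPM in FRP. In PVH it reached 15.3 and 15.7 TPM, and the 10 libraries of the hindbrain nuclei lay at 0.99 to 3.05 TPM (median 1.28). Wnt9a was at 14.99, 16.7 and 15.9 TPM in ACA and 15.03, 16.6 and 10.8 TPM in FRP, above 7.22, 10.01 and 7.75 TPM in ENT, and Wnt10a had its highest mean in FRP, with 7.93, 11.6 and 4.38 TPM. Wnt2 was highest in ACB, with 13.5, 10.1 and 9.95 TPM, and the next region, ENT, had 4.81, 5.36 and 2.50 TPM, without overlap. Wnt5a, the main ligand of β-catenin-independent signalling, was highest in H with 25.2, 16.03 and 29.2 TPM and, among adult regions, in ARH with 13.4, 13.9 and 14.9 TPM, a range that the first NTS and the second VTA library also reached. Wnt2b was also highest in ARH, at 6.34, 6.12 and 5.72 TPM. Wnt6 reached 5.26, 5.86 and 4.04 TPM in ARH and 7.49, 5.67, 4.69 and 3.27 TPM in CUL4,5, ranges that overlapped. These ARH values stand beside a sum of meningeal and fibroblast markers of 111 to 168 TPM in ARH and at most 48.96 TPM in the other hypothalamic libraries, and the part of such cells in them was not tested.

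Wnt3 and Wnt9b are neighbours on chromosome 11, 24329 bases apart in GRCm38, and both were highest in PVH. Wnt3 was at 15.02 and 16.3 TPM in PVH, 11.2, 13.6, 11.9 and 11.2 TPM in CUL4,5, 8.59, 12.6, 7.99 and 10.3 TPM in DMH and 0.595, 0.158 and 0.334 TPM in ENT. The PVH libraries lay above all others, and those of the cortical regions below every other adult library. Wnt9b was far lower, at 5.96 and 4.55 TPM in PVH, 2.48, 5.496, 2.68 and 3.38 TPM in DMH and 0.0758 and 0.158 TPM in VMH. Over the 18 adult region means, r of log2(TPM + 1) was 0.75 for Wnt3 and Wnt9b, 0.62 for the neighbours Wnt1 and Wnt10b, 0.22 for Wnt3a and Wnt9a and -0.21 for Wnt6 and Wnt10a. The 4 neighbouring pairs thus differed in how alike their patterns were. The PVH and DMH values of Wnt3 and Wnt9b stand beside the thalamus marker sums given above, whose part in them was not tested.

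Ligands of the embryonic midline were at or near 0 in the adult brain. Wnt3a was at 3.65 TPM in F and 1.19, 0.718 and 4.77 TPM in H, and at 0 to 0.118 TPM (median 0, 57 libraries) in adult regions. Wnt8b, an early marker of the dorsal forebrain and hypothalamus, was at 18.3 TPM in F and 11.2, 13.8 and 3.58 TPM in THy/PHy. It was listed at 0 in all 9 libraries of adult cortex. Wnt1 was at 5.66 and 1.66 TPM in M and 2.53, 1.64 and 1.98 TPM in H, and it was listed at 0 in all mESC libraries. In the adult brain Wnt1 was not at 0 everywhere, with 1.62, 1.44 and 1.14 TPM in ACB and 0.6251 to 1.51 TPM (median 0.891, 9 libraries) in cortex. Wnt11 and Wnt16 reached a mean of 1 TPM in some regions but not 5 TPM in any, and Wnt10b had its highest mean in VTA, at 0.202, 1.63 and 1.51 TPM.

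Summed over the 19 ligands, Wnt mRNA was 5.30 and 5.71 TPM in the mESC B6-1 libraries and 3.80 and 4.82 TPM in B6-2. Among brain libraries the sum lay between 15.8 TPM in a VTA library and 128 TPM in an ENT library. Region means lay between 40.5 TPM in VTA and 113 TPM in ENT. The lowest VTA library was the one with the high mitochondrial share. In PVH no ligand dominated, with Wnt3 at 16.9% and Wnt4 at 16.8% of the sum.

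**Figure D2:**
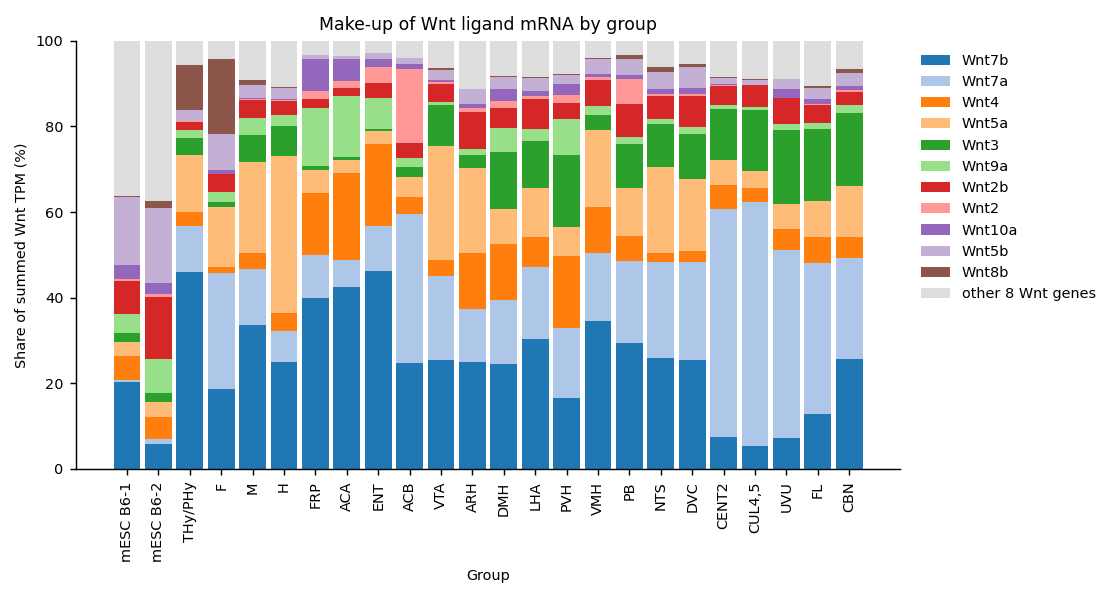
Share of the summed Wnt TPM (%) that each ligand took in each group (bars, mean over the libraries of a group), with the less abundant ligands added up in grey. Wnt7b fills 39.8% to 46.2% of the bars in the cortical regions and Wnt7a 35.2% to 56.9% in the cerebellar cortex.

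Among the receptors, Fzd3, which guides axons and acts in planar polarity, was the most abundant frizzled in THy/PHy, H and most adult regions, and Fzd1 took its place in M, DVC, CBN and the cerebellar cortex, Fzd2 in F and Fzd5 in ARH. Fzd3 took 39.4% to 46.1% of the summed Fzd TPM in the cortical regions. In the cerebellar cortex Fzd1 led with 27.2% to 39.5%, and Fzd7 was the next. Fzd1 was at 35.7, 36.8, 35.9 and 35.3 TPM in CUL4,5, and Fzd7 at 22.1, 21.9, 30.1 and 22.5 TPM. Every library of the cerebellar cortex was above every other adult library for both genes. Fzd1, Fzd2 and Fzd7 form a subfamily, and Fzd2 went the other way, with 1.04 to 3.98 TPM (median 1.81, 15 libraries) in the cerebellar cortex and 8.39, 12.04 and 8.32 TPM in ARH. Over the adult region means, r was 0.87 for Fzd1 and Fzd7 and -0.70 for Fzd1 and Fzd2.

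Fzd5, a receptor known from the eye field and the gut, was concentrated in a single adult nucleus, ARH, whose libraries lay above every other adult library. It was at 20.7, 27.8 and 25.1 TPM in ARH, 2.41 and 6.97 TPM in VMH and 0.977 and 0.802 TPM in PVH. In ARH it took 25.3% of the summed Fzd TPM. Outside the adult brain it was at 11.1, 14.6 and 6.43 TPM in THy/PHy and 26.1 to 34.1 TPM (median 30.7, 4 libraries) in mESC, where it made up 45% to 46% of the Fzd sum. Its relative Fzd8 had its highest value in F, at 42.6 TPM, against 1.39 to 5.48 TPM (median 2.74, 57 libraries) in the adult brain. Fzd10, which is found at the dorsal midline of the neural tube, was at 19.8 and 35.3 TPM in M and 11.2, 15.9 and 39.7 TPM in H. In the adult brain its highest values were in PVH, at 6.24 and 5.85 TPM. Fzd9 was highest in F, and among adult regions in FL, at 6.16, 11.6, 13.2 and 12.3 TPM.

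Fzd4, the receptor of Norrin and Wnt7 on brain endothelium, had its highest value in CBN, at 15.4, 7.70 and 8.06 TPM, and a high single library in NTS, at 10.9, 5.25, 5.495 and 4.25 TPM. The first CBN and the first NTS library, which held these highest values, also had the highest choroid plexus marker sums of their regions. The part of choroid plexus in the Fzd4 values was not tested. Fzd6 had group means of 2.37 to 7.42 TPM by the deposited gene values. Its fold changes rest on incomplete counts, because the matched transcripts miss up to 4.92 TPM of it in a library. Lrp6 ranged from a mean of 11.7 TPM in VTA to 25.8 TPM in F, and Lrp5 was lower, from 4.27 to 18.8 TPM.

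Tcf7l2 had the widest range of the effectors. It codes for the TCF factor of postmitotic thalamic and midbrain neurons and lies at chr19:55741820-55933654 in GRCm38. In PVH it was at 221 and 234 TPM, in DMH at 105, 168, 98.7 and 145 TPM and in LHA at 31.2, 43.8 and 15.4 TPM. The other hypothalamic nuclei were far lower, with 22.6, 18.3 and 20.6 TPM in ARH and 16.1 and 16.9 TPM in VMH, and cortex lay at 1.91 to 5.34 TPM (median 3.61, 9 libraries). The PVH libraries did not overlap those of any other adult region. Lef1, at chr3:131110471-131224356, followed a similar order, with 33.9 and 31.3 TPM in PVH, 17.2, 29.1, 12.9 and 22.1 TPM in DMH and 6.87 and 8.85 TPM in VMH. Over the 22 brain regions r of log2(TPM + 1) between Lef1 and Tcf7l2 was 0.88. Within DMH and LHA the libraries ranked by Tcf7l2 as they ranked by the thalamus marker sum, which was 343, 596, 271 and 425 TPM in DMH replicates 1 to 4 and 256, 293 and 95.1 TPM in LHA replicates 1 to 3. In the PVH libraries the order was the other way, with the higher Tcf7l2 beside the lower thalamus sum. The part of thalamic tissue in these values was not tested. Elsewhere Tcf7l2 varied between replicates without such a difference in the marker sum, as in CUL4,5, where it was at 55.5, 7.79, 5.78 and 28.5 TPM with thalamus sums of 125 to 138 TPM.

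The make-up of the TCF/LEF mRNA differed between groups. Tcf7l2 took 85.2% of the summed TCF/LEF TPM in PVH and 82.7% in DMH. Tcf7l1, a factor that mainly represses, led in mESC with 66.9% and 68%, at 84.8 to 95.8 TPM (median 92.9, 4 libraries). In H, Tcf7l1 was at 93.5, 32.99 and 16.3 TPM, so that a single library stood above the others. That library, H replicate 1, had the lowest total count and a mitochondrial share of 22.6%. Tcf7, known from T cells, led in ACB with 33.6%, at 8.33, 5.60 and 4.99 TPM, and these libraries lay above every other adult library. Lef1 had the largest share in H, DVC, CBN, UVU, ENT and ACA, from 30.1% in ENT to 40.1% in ACA, and in FRP both Lef1 and Tcf7l2 took 28.3%.

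**Figure D3:**
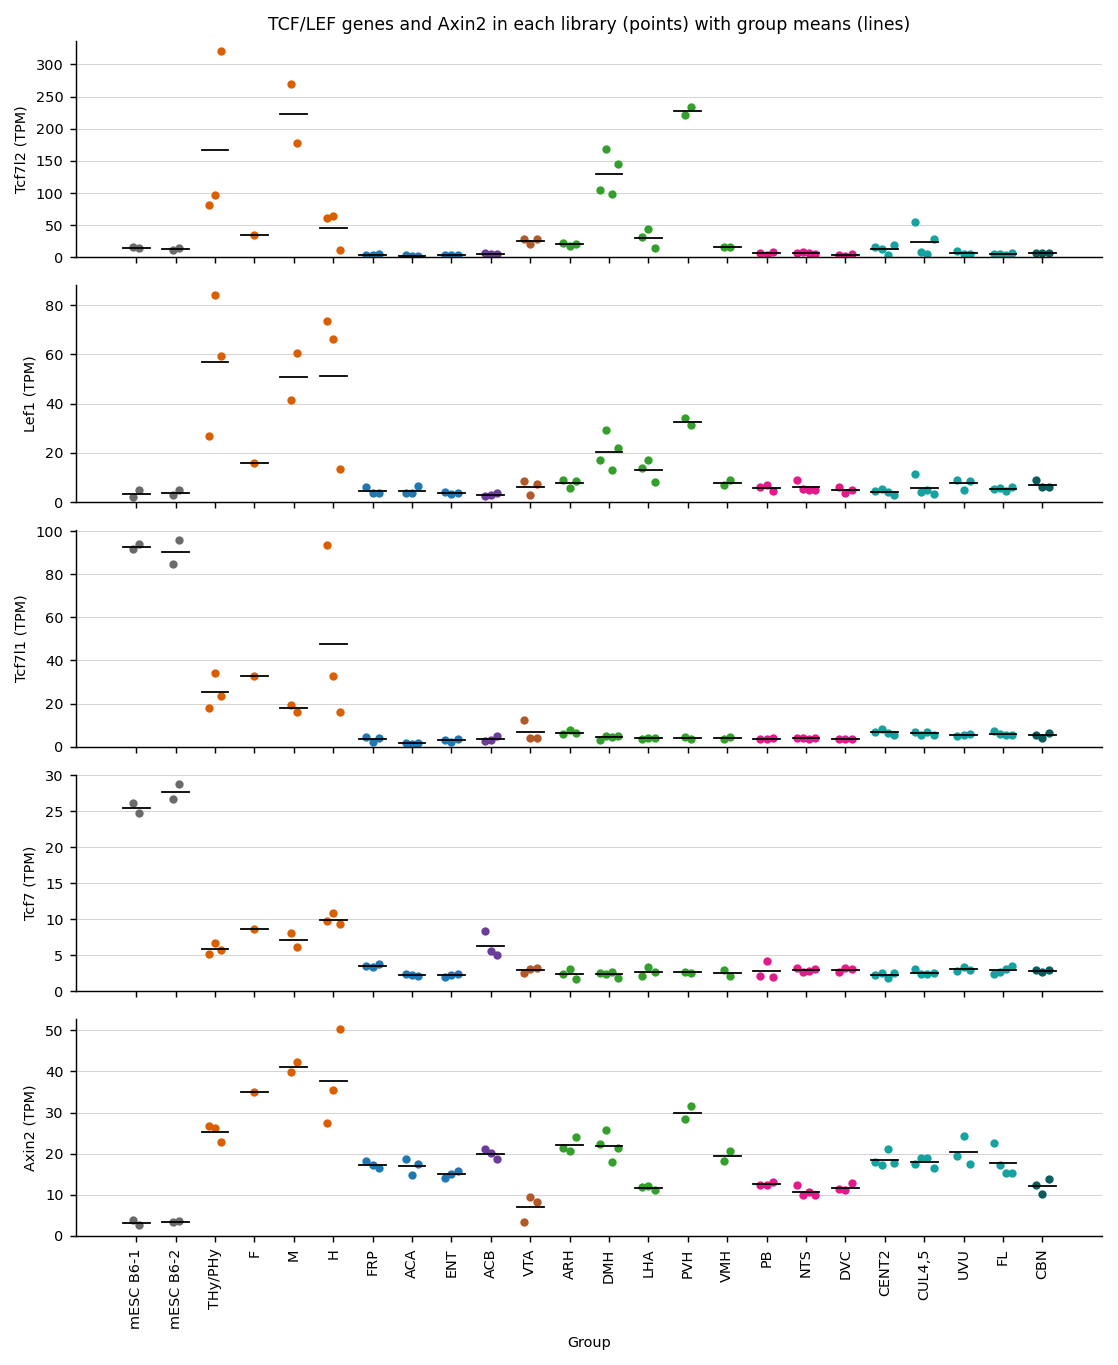
TPM of Tcf7l2, Lef1, Tcf7l1, Tcf7 and Axin2 (panels) in each of the 70 libraries (points) by group (horizontal axis), with group means as lines and each vertical axis starting at 0. Tcf7l2 and Lef1 are high in PVH, DMH and most embryonic regions, Tcf7l1 and Tcf7 in mESC, and Axin2 is low in mESC and VTA.

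Transcripts of Tcf7l2 start in 2 stretches of the gene. Of the 22 annotated transcripts with values, 16 start between 55741820 and 55742845 on chromosome 19 and 6 start between 55893352 and 55898553, within the gene. The 6 downstream starts are scattered, and 3 of these transcripts are protein-coding. The split was looked at after the values had been seen, and it rests on the authors' estimates from 33-base single reads. The share of Tcf7l2 TPM on transcripts with a downstream start was 51% ± 5.1 (SD, n = 2) in PVH, 49.7% ± 4.6 (SD, n = 4) in DMH, 56.9% ± 7.7 (SD, n = 3) in VTA, 55.2% ± 7.7 (SD, n = 3) in THy/PHy and 55.2% ± 6.4 (SD, n = 2) for M. In H, F and LHA, which had more Tcf7l2 than VTA, it was lower, at 37.5% ± 14.6 (SD, n = 3) in H, 32.9% in the F library and 27.1% ± 6.5 (SD, n = 3) in LHA. It was 3.0% ± 3.5 (SD, n = 3) in ENT and 17.1% ± 5.8 (SD, n = 3) in FRP, where the gene was low. RefSeq places its downstream start at 55895321, where none of the 6 transcripts starts, so the window before it is not that of all transcripts in this share. The 250 bases before each of 2 RefSeq starts (GRCm38.p6, plus strand, RefSeq sequence) are shown because they differ in base composition, with every CG in capitals.
before the upstream start, chr19:55741560-55741809: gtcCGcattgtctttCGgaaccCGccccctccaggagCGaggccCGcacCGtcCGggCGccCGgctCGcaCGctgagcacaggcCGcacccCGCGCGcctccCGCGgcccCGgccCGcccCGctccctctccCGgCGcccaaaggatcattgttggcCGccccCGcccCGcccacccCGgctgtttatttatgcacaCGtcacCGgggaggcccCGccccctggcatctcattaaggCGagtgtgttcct
before the downstream start, chr19:55895071-55895320: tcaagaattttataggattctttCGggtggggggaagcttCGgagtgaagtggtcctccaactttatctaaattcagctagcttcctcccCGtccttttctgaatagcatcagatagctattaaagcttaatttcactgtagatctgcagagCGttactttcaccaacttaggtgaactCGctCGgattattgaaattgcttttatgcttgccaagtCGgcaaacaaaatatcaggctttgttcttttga
The upstream window has 72.8% G and C and 30 CG, and 5.9% of all RefSeq windows of this length hold at least as many CG. The downstream window has 40.8% G and C and 7 CG, close to the median of 6, with 46.3% of windows at or above it.

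**Figure D4:**
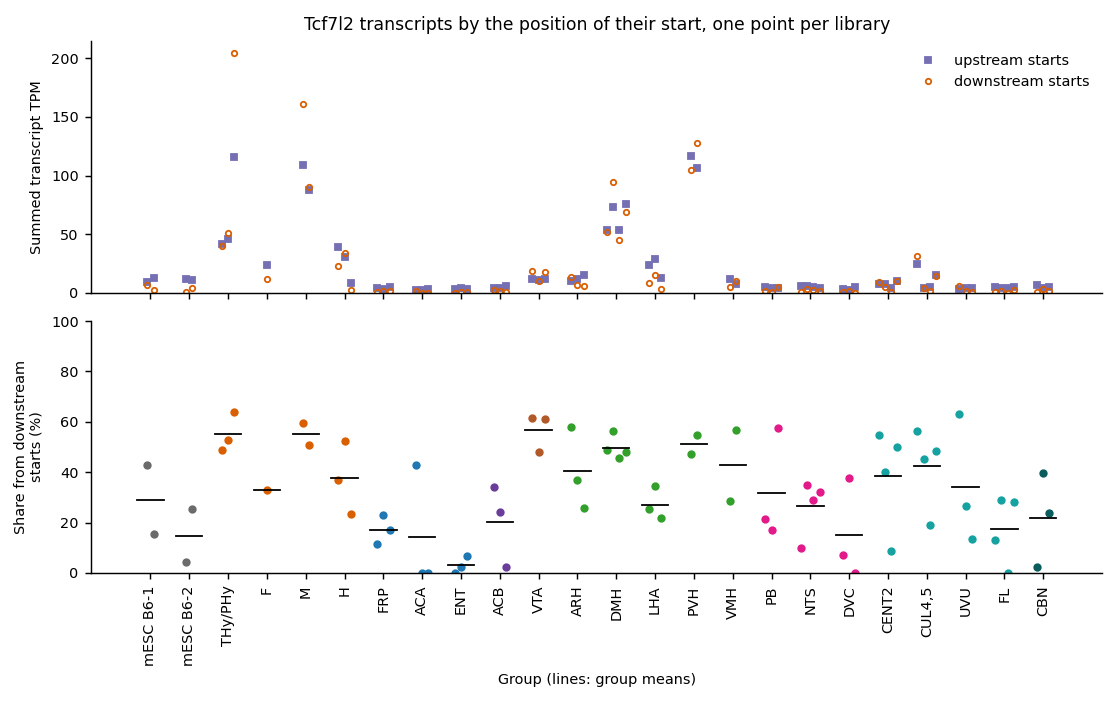
Upper panel, summed TPM of Tcf7l2 transcripts with upstream (filled squares) and downstream starts (open circles) in each library; lower panel, the share of downstream starts (%), with group means as lines. The share sits near 50% in PVH, DMH, VTA, M and THy/PHy and is lowest in ENT, at 3.0%.

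Wnt7b transcripts also differ in their start, and their shares differed by stage. Its annotated start 85581821 (chromosome 15, minus strand) belongs to 1 transcript, and 2 others start at 85580729 to 85581582. The share of Wnt7b TPM on the other 2 transcripts was 18% ± 11.6 (SD, n = 3) in THy/PHy, 25.8% ± 13.5 (SD, n = 2) for M and 21.1% ± 19 (SD, n = 3) for H. In the adult brain it was 68% ± 1.1 (SD, n = 3) in ACA, 65.6% ± 2.9 (SD, n = 3) in FRP and 49.3% ± 15.2 (SD, n = 3) in ENT, and 72.9% to 100% in the other regions. The starts lie close together, so these estimates depend on few bases that tell the forms apart, and no test was made on them.

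Axin2, the feedback gene at chr11:108920349-108950783, varied less across the adult brain than Tcf7l2 and Lef1. It was highest in PVH, at 28.3 and 31.5 TPM, and lowest in VTA, at 3.37, 9.41 and 8.20 TPM. The lowest VTA value belonged to the library with the high mitochondrial share, and all 3 were below every other adult library. In the embryo it was at 39.8 and 42.2 TPM in M and 27.4, 35.6 and 50.3 TPM in H. In mESC it was at 2.54 to 3.87 TPM (median 3.48, 4 libraries), below every brain library except 1 of VTA. Axin1, which is expressed constitutively, was at 34.7 to 37.6 TPM (median 36.2, 4 libraries) in mESC and 7.14 to 35.6 TPM (median 19.4, 57 libraries) in the adult brain. In mESC the mean of Axin2 was 3.21 and 3.48 TPM in the 2 lines where that of Axin1 was 36.3 and 35.99 TPM, while in H, for example, the means were 37.8 and 34.2 TPM.

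Promoters of the members were searched for the TCF/LEF core motifs CTTTGAA and CTTTGAT on both strands, from 250 bases before to 50 bases after each RefSeq start. Of the 37 members, 26 had such a window, and either motif occurred in 2 of them (7.7%), against 9.88% of 27025 genes. Both matches were of CTTTGAT. The matches are shown with the motif, or its reverse complement, in capitals, because Wnt11 and Wnt5b are the only members that held one.
Wnt11, chr7:98835061-98835067, position -51 from the start, on the other strand: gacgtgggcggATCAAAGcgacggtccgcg
Wnt5b, chr6:119449451-119449457, position -71 from the start, on the strand of the gene: agtaagtctctCTTTGATctgctccctgtc
The windows of Axin2, Lef1 and Tcf7l2 held no match. A match is a run of letters and not a shown binding site.

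Between embryonic and adult brain, more members were higher than lower in the embryo, among them every TCF/LEF factor. Of the 37 members, 16 (43.2%) were called higher in the 4 embryonic regions, against 17.8% of all genes tested, and 4 (10.8%) lower, against 19.9%. The median log2 fold change of the members was 0.78, and the medians over all genes tested lay between -0.033 and 0.015 in the comparisons made. The higher members included all 4 TCF/LEF genes, 5 of 10 frizzleds, Lrp5, Axin2 and 5 Wnt ligands. The ranges of the libraries did not overlap for 2 of the 37 members, against 10.7% of all genes. Fzd2 was at 12.3 to 60.03 TPM (median 23.4, 9 libraries) in the embryo and 1.03 to 12.04 TPM (median 3.98, 57 libraries) in the adult brain, without overlap, and had a log2 fold change 2.72 ± 0.12, edgeR adjusted p = 7.59e-27. Tcf7l1 was at 16.2 to 93.5 TPM (median 23.5, 9 libraries), also without overlap with the 1.38 to 12.5 TPM (median 4.25, 57 libraries) of the adult brain, and had a log2 fold change 2.61 ± 0.11, edgeR adjusted p = 1.62e-28. For Tcf7l2 the ranges overlapped, at 10.8 to 321 TPM (median 80.9, 9 libraries) in the embryo and 1.91 to 234 TPM (median 6.59, 57 libraries) in the adult brain, with a log2 fold change 2.61 ± 0.18, edgeR adjusted p = 6.90e-19. Lef1 rose by 2.18 ± 0.12, Tcf7 by 1.38 ± 0.09 and Axin2 by 1.09 ± 0.05 on the log2 scale. Among ligands, Wnt3a (5.92 ± 0.49), Wnt8b (4.79 ± 0.36) and Wnt1 (2.78 ± 0.35) rose most, from adult region means of at most 0.065, 0.566 and 1.40 TPM. The members called lower in the embryo were all ligands, Wnt9b (-2.52), Wnt10a (-2.10), Wnt10b (-1.57) and Wnt4 (-1.001). F was a single library, and without it Wnt5b was at 0.54 and Wnt4 at -0.71, both not called, Wnt9b was at -1.12, and Wnt6 (1.19) and Wnt11 (1.38) were called. The call of Wnt4 was lost without any 1 of 35 libraries, that of Fzd7 without H replicate 1 (0.85) or M replicate 2 (0.99), that of Lrp5 without F (0.99) or H replicate 1 (0.98), that of Wnt10b without any 1 of 3 adult libraries and that of Wnt9b without ACB or ENT replicate 3. Meningeal and fibroblast markers summed to 121 to 626 TPM in the embryonic libraries and neural progenitor markers to 596 to 2377 TPM, against at most 168 and 678 TPM in adult libraries, and their part in these differences was not tested.

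Within the hypothalamus, 14 members were called higher in THy/PHy than in the 5 adult nuclei, against 18.2% of all genes, and 5 lower, against 20%. Library ranges did not overlap for 14 of the 37 members, against 41.9% of all genes. Wnt8b was at 11.2, 13.8 and 3.58 TPM in THy/PHy and 0 to 0.306 TPM (median 0.12, 14 libraries) in the adult nuclei, without overlap (log2 fold change 6.23 ± 0.41, edgeR adjusted p = 4.92e-18). Frizzled genes Fzd2 (2.19 ± 0.22), Fzd7 (2.07 ± 0.21) and Fzd5 (1.77 ± 0.18) were higher. Of the effectors, Tcf7l1 changed most (2.48 ± 0.19), ahead of Tcf7l2 (1.496 ± 0.32), Tcf7 (1.30 ± 0.15) and Lef1 (1.29 ± 0.22). Axin2 was at 26.8, 26.2 and 22.8 TPM in THy/PHy and 11.05 to 31.5 TPM (median 21, 14 libraries) in the adult nuclei, which overlapped. Its log2 fold change 0.33 ± 0.09, edgeR adjusted p = 0.00138 was below the size required for a call. Wnt7b was higher as well (1.24 ± 0.22), and Wnt10a (-3.65), Wnt9b (-2.95), Wnt2 (-2.93), Wnt4 (-1.57) and Wnt2b (-1.32) were lower. With ARH and VMH alone as the adult hypothalamus, an alternative chosen after the thalamus marker sums had been seen, the log2 fold change was 2.97 for Tcf7l2, 2.09 for Lef1 and 0.06 for Fzd5, and Fzd5, Wnt9b (-0.95), Wnt6 (1.000), Wnt3a (1.97), Fzd3 (0.89) and Lrp5 (0.85) were no longer called. Tcf7l2 was at 80.9, 96.9 and 321 TPM in THy/PHy, so that the third library was far above the others. Without it, the log2 fold change of Tcf7l2 was 0.54, without replicate 1, Wnt7b was at 0.91, Wnt6 at 1.19 and Wnt3a at 1.56, and without replicate 2, Fzd3 was at 0.91 and Lrp5 at 0.97, none of them called.

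Within the hindbrain, 16 members were called higher in H than in PB, NTS and DVC, against 23.0% of all genes, and 2 lower, against 21.1%. Library ranges did not overlap for 20 of the 37 members, against 44.9% of all genes. Axin2 was at 27.4, 35.6 and 50.3 TPM in H and 9.95 to 12.99 TPM (median 11.8, 10 libraries) in the adult nuclei, without overlap (log2 fold change 2.01 ± 0.09, edgeR adjusted p = 1.69e-26). Lef1 was at 73.6, 66.2 and 13.6 TPM in H and 3.58 to 8.84 TPM (median 5.09, 10 libraries) in the adult nuclei, with a log2 fold change 2.59 ± 0.23, edgeR adjusted p = 1.01e-14. The groups did not overlap, although the third H library was much lower than the other 2. Wnt3a (7.12 ± 0.70) and Wnt1 (6.03 ± 0.52) had the largest changes, the latter from adult levels of at most 0.109 TPM. Fzd10 (3.53 ± 0.23), Tcf7l1 (3.21 ± 0.20), Tcf7l2 (2.60 ± 0.36), Wnt6 (2.43 ± 0.55), Fzd7 (2.29 ± 0.22) and Tcf7 (1.79 ± 0.16) were also higher. Wnt10a (-1.89) and Wnt8b (-1.70), both with means under 1 TPM on each side, were the members called lower. Without H replicate 1, Fzd7 was at 1.36, still called, and Fzd8 (0.47), Lrp5 (0.74) and Wnt8b (-1.32) were not called. Without H replicate 3, Wnt9a (0.47) was not called.

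The stage difference itself differed between hypothalamus and hindbrain for 11 members. An interaction contrast called 3 members with a more positive embryonic change in the hypothalamus, against 3.46% of all genes, and 8 with a more positive change in the hindbrain, against 6.38%. Axin2 changed by 0.33 in the hypothalamus and 2.01 in the hindbrain, a difference of -1.69 ± 0.14 with an edgeR adjusted p = 1.84e-13. Lef1 differed by -1.30 ± 0.34 (adjusted p = 0.00318), and by -0.56 without H replicate 1, where it was not called. Fzd5 rose in the hypothalamus and was at -0.90 in the hindbrain, not called there, a difference of 2.67 ± 0.34 (adjusted p = 3.11e-08), and Wnt8b rose in the former and fell in the latter (7.93 ± 0.82, adjusted p = 8.81e-10). On the side of the hindbrain were Wnt1 (-5.91), Fzd10 (-3.61), Wnt9b (-2.68), Wnt4 (-2.49), Wnt9a (-1.92) and Wnt5a (-1.38). Without H replicate 3, Wnt9a was at -0.83 and not called. Wnt7a, at 1.005, was just past the threshold and lost its call without any 1 of 12 libraries. For Tcf7 (-0.50 ± 0.23, adjusted p = 0.102), Tcf7l1 (-0.73 ± 0.31, adjusted p = 0.0618) and Tcf7l2 (-1.11 ± 0.52, adjusted p = 0.101) no difference was called, although Tcf7l2 was called without THy/PHy replicate 3 (-2.07) or H replicate 3 (-1.55). With ARH and VMH as the adult hypothalamus, Axin2 was at -1.70 and remained called, while Lef1 (-0.50), Fzd5 (0.96), Wnt9b (-0.69) and Wnt9a (-0.81) were not called and Fzd3 (-1.17) and Wnt3a (-5.15) were.

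**Figure D5:**
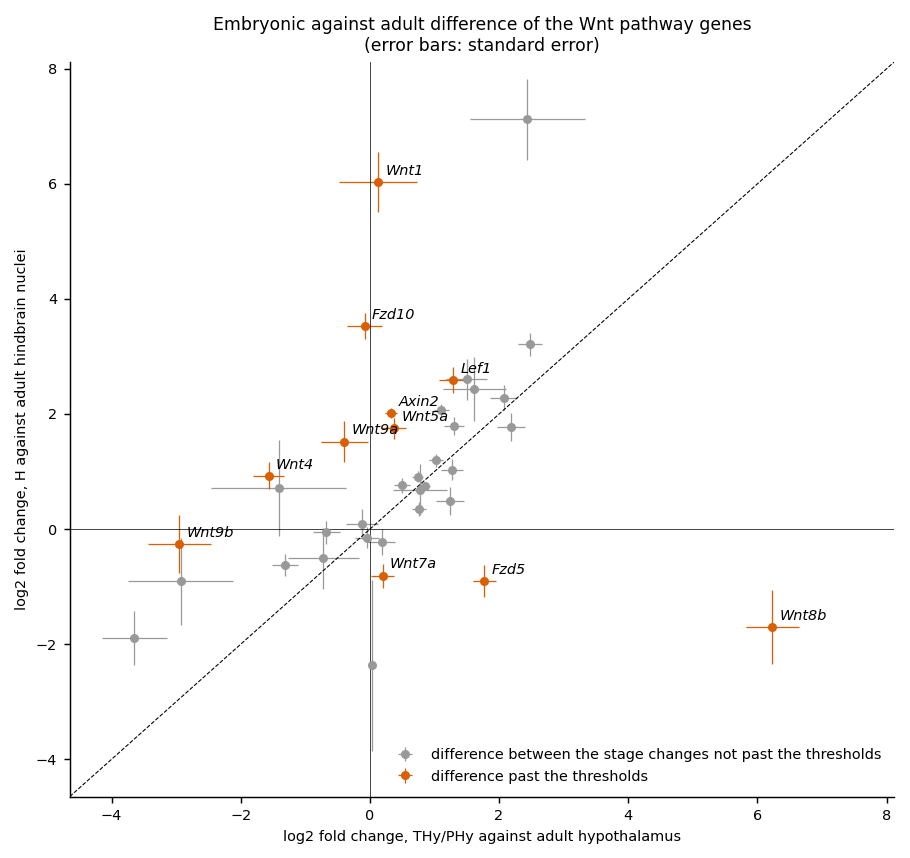
Log2 fold change of each member, embryonic against adult, in the hypothalamus (horizontal axis) and in the hindbrain (vertical axis), with standard errors as bars, where coloured points are members called in the interaction contrast. Most points lie above 0 on both axes, Wnt8b and Fzd5 sit to the lower right, and Wnt1, Fzd10 and Axin2 lie above the diagonal.

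Between embryonic regions, fewer members were called than between stages, as were fewer of all genes. THy/PHy had 2 members (5.41%) called higher than M and H, against 1.44% of all genes, and 3 (8.11%) lower, against 1.74%. Fzd5 was at 11.1, 14.6 and 6.43 TPM in THy/PHy, 0.349 and 0.6 TPM in M and 0.368, 0.436 and 0.627 TPM in H (log2 fold change 4.47 ± 0.26, edgeR adjusted p = 4.71e-19). Wnt8b was the other higher member (log2 fold change 4.54 ± 0.55, edgeR adjusted p = 3.47e-08). Fzd10 went the other way, with 3.58, 1.92 and 1.97 TPM in THy/PHy (log2 fold change -3.30 ± 0.33, edgeR adjusted p = 6.58e-11), together with Wnt1 (-4.48) and Wnt3a (-3.63). Axin2 was lower in THy/PHy by less than the size required (log2 fold change -0.70 ± 0.11, edgeR adjusted p = 3.98e-06), and Lef1 (-0.14 ± 0.27), Tcf7 (-0.45 ± 0.19), Tcf7l1 (-0.01 ± 0.24) and Tcf7l2 (0.80 ± 0.39) had adjusted p of 0.145 or more. Between M and H, 3 members (8.11%) were called higher in M, against 2.51%, and 3 (8.11%) lower, against 6.02%. Tcf7l2 was at 269.7 and 177 TPM in M and 61.6, 63.7 and 10.8 TPM in H (log2 fold change 2.40 ± 0.50, edgeR adjusted p = 4.86e-04), and Fzd1 at 59.8 and 55.9 TPM in M and 9.65, 14.4 and 13.1 TPM in H (log2 fold change 1.91 ± 0.18, edgeR adjusted p = 4.76e-10). Wnt8b was higher (2.97), and Wnt3a (-2.32), Tcf7l1 (-1.10) and Fzd4 (-1.09) were lower in M. A fit of the M and H libraries alone called 0 members by edgeR, with 7 at an unadjusted p under 0.05. Most of the calls also rested on single libraries, since Fzd4 (-0.78) and Tcf7l1 (-0.32) were not called without H replicate 1, nor Wnt3a without H replicate 3 (-1.44), nor Wnt8b (1.83), Wnt3a (-1.70) and Tcf7l1 (-0.98) without M replicate 2. Axin2 (-0.34 ± 0.13), Lef1 (0.46 ± 0.33) and Tcf7 (-0.75 ± 0.23) were not called. The 5 choroid plexus markers summed to 27.8 and 1728 TPM in the M libraries, so the midbrain replicates were unlike in this respect, and all 5 were above 0 in every group.

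In mESC, most ligands were at or near 0, and a different set of receptors and TCF factors was present. After Fzd5, the most abundant frizzleds were Fzd7, with 20.5% and 21% of the sum in the 2 lines, and Fzd10, with 16.5% and 15.7%. Of the members, 19 were called lower than in embryonic brain, against 29.0% of all genes, and 4 higher, against 26.8%. Library ranges did not overlap for 20 of the 37 members, against 51.4% of all genes. Fzd5 was the leading receptor, at 26.1 to 34.1 TPM (median 30.7, 4 libraries) against 0.349 to 14.6 TPM (median 0.627, 9 libraries) in the embryonic brain, with a log2 fold change 4.54 ± 0.22, edgeR adjusted p = 2.55e-25. Tcf7 was higher without overlap (log2 fold change 2.20 ± 0.15, edgeR adjusted p = 5.78e-19). Tcf7l1 was higher as well (log2 fold change 2.13 ± 0.19, edgeR adjusted p = 2.32e-14), with ranges that overlapped through the first H library. Wnt8a was also called, at 0.197 to 0.815 TPM (median 0.421, 4 libraries), below 1 TPM throughout. Axin2 was lower, at 2.54 to 3.87 TPM (median 3.48, 4 libraries) against 22.8 to 50.3 TPM (median 35.1, 9 libraries), without overlap (log2 fold change -2.93 ± 0.11, edgeR adjusted p = 2.14e-30). Lef1 was lower without overlap (log2 fold change -2.91 ± 0.27, edgeR adjusted p = 4.92e-14). Tcf7l2 was lower as well (log2 fold change -1.97 ± 0.38, edgeR adjusted p = 6.21e-06), although the third H library lay below the mESC libraries. The lower ligands were led by Wnt7a (-7.54 ± 0.38), Wnt5a (-5.76 ± 0.29), Wnt7b (-5.30 ± 0.36), Wnt8b (-5.26 ± 0.67) and Wnt3 (-4.55 ± 0.31), with Wnt1 listed at 0. Wnt5b (-1.65) was at -1.09 without F. The lower frizzleds with the largest changes were Fzd1 (-4.40 ± 0.17) and Fzd2 (-4.18 ± 0.31). The compared cells had been grown with a GSK3 inhibitor, and the part of the medium in these differences cannot be told apart from that of the cell type.

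Each broad adult area was compared with all other adult regions. These 7 comparisons share libraries, so their values stand side by side and are not independent. In cortex, 7 members were called higher, against 8.17% of all genes, and 8 lower, against 7.95%. Library ranges did not overlap for 2 members, against 1.77% of all genes. All 7 higher members were ligands. They were Wnt9a (3.55 ± 0.16), Wnt2 (3.27 ± 0.29), Wnt10a (3.13 ± 0.15), Wnt4 (2.54 ± 0.10), Wnt7b (2.07 ± 0.12) and, with region means near or under 1 TPM, Wnt1 (4.06 ± 0.27) and Wnt10b (2.69 ± 0.33). Wnt3 was the ligand that fell most among those with counts in cortex, at 0.158 to 1.25 TPM (median 0.5259, 9 libraries), below all other adult libraries (log2 fold change -3.19 ± 0.16, edgeR adjusted p = 1.47e-24). Wnt9b (-3.09), Wnt11 (-3.08), Tcf7l2 (-1.86), Fzd5 (-1.72), Fzd7 (-1.32) and Fzd10 (-1.02) were also lower, and Wnt8b was listed at 0. Axin2 (0.22 ± 0.05), Lef1 (-0.55 ± 0.15), Tcf7 (-0.04 ± 0.10) and Tcf7l1 (-0.89 ± 0.15) were not called. Fzd10 was near the threshold and lost its call without any 1 of 9 libraries, at -0.965 in the weakest case, Wnt9b without ACB replicate 3 and Wnt8b without ACB replicate 1 or VMH replicate 1.

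In the hypothalamus, 6 members were called higher, against 6.11% of all genes, and 0 lower, against 2.74%. Tcf7l2 led, at 15.4 to 234 TPM (median 37.5, 14 libraries) against 1.91 to 55.5 TPM (median 5.92, 43 libraries) elsewhere, with a log2 fold change 2.80 ± 0.17, edgeR adjusted p = 2.25e-20. Wnt9b (2.42 ± 0.24), Fzd5 (2.01 ± 0.11), Lef1 (1.45 ± 0.11), Wnt11 (1.44 ± 0.23) and Fzd10 (1.14 ± 0.13) followed. Axin2 was 0.40 ± 0.05, Tcf7 -0.35 ± 0.09 and Tcf7l1 0.01 ± 0.12, none of them called. With ARH and VMH alone as the hypothalamus, the nuclei with low thalamus marker sums, the log2 fold change of Tcf7l2 was 1.32, that of Fzd5 3.71 and that of Wnt11 1.30, all called. ARH held markers of PVH, and VMH those of LHA, as given above, and their part was not tested. Lef1 (0.65), Wnt9b (0.43) and Fzd10 (0.28) were then not called, and Wnt8a (1.495), Wnt5a (1.16) and Fzd2 (1.10) were called higher and Wnt3 (-1.02) lower.

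The cerebellar cortex had 6 members called higher, against 8.21% of all genes, and 8 lower, against 9.75%. Library ranges did not overlap for 2 members, against 2.71% of all genes. The higher members were Wnt6 (2.97 ± 0.23), Fzd7 (2.66 ± 0.10), Wnt9b (2.32 ± 0.19), Wnt3 (1.70 ± 0.09), Fzd1 (1.70 ± 0.06) and Wnt7a (1.66 ± 0.08). Wnt6 was at 7.49, 5.67, 4.69 and 3.27 TPM in CUL4,5 and 3.09, 2.36, 6.93 and 2.98 TPM in FL, beside sums of meningeal and fibroblast markers of 129, 56.6, 56.9 and 65.4 TPM and 80.4, 81.1, 120 and 70.6 TPM in the same libraries, and the library with the highest marker sum of each region had its highest Wnt6. Choroid plexus markers summed to 1809, 3065, 631 and 36.7 TPM in FL and 2115 TPM in UVU replicate 1. The part of these tissues in the cerebellar values was not tested. Fzd7 was at 9.38 to 30.1 TPM (median 20.8, 15 libraries), above every other adult library (log2 fold change 2.66 ± 0.10, edgeR adjusted p = 4.63e-29). Among the lower members, Wnt7b (-1.86 ± 0.13) and Fzd2 (-1.54 ± 0.14) had the highest levels, and the others were Wnt2 (-4.67), Wnt1 (-3.06), Wnt10a (-1.78), Wnt9a (-1.48), Fzd5 (-1.36) and Wnt10b (-1.06). Axin2 (0.12 ± 0.04), Lef1 (-0.67 ± 0.13), Tcf7 (-0.22 ± 0.08), Tcf7l1 (0.57 ± 0.11) and Tcf7l2 (-0.61 ± 0.19) were not called. Wnt10b lost its call without any 1 of 10 libraries and Wnt1 without PB replicate 1 (-2.86). Neural progenitor markers, among them Pax6, Sox2 and Vim, which granule cells or glia also express, summed to 307 to 678 TPM in the cerebellar cortex against at most 262 TPM in other adult libraries, and their part was not tested. In CBN, 7 members were called higher, against 7.86%, and 0 lower, against 2.88%. They were Wnt8b (2.75 ± 0.46), Fzd4 (1.43 ± 0.14), Wnt11 (1.31 ± 0.38), Wnt3 (1.30 ± 0.16), Fzd10 (1.21 ± 0.22), Fzd7 (1.02 ± 0.20) and Wnt9b (1.011 ± 0.33), the last with a lower arithmetic mean, at 0.549 TPM against 0.946 TPM. Choroid plexus markers were highest in CBN, as given above, and their part in these differences was not tested. Without CBN replicate 1, the library with the highest such sum, Fzd10 (0.79), Fzd7 (0.94) and Wnt11 (1.08) were not called, and the call of Wnt9b was lost without any 1 of 15 libraries. Axin2 (-0.31 ± 0.09), Lef1 (0.22 ± 0.23), Tcf7 (0.14 ± 0.16), Tcf7l1 (0.46 ± 0.20) and Tcf7l2 (-0.66 ± 0.38) were not called.

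In the hindbrain nuclei, 3 members were called higher, against 5.17% of all genes, and 5 lower, against 2.67%. The lower ones were Wnt4 (-1.84 ± 0.14), Wnt6 (-1.76 ± 0.38), Tcf7l2 (-1.31 ± 0.24), Wnt9a (-1.30 ± 0.22) and Wnt10b (-1.85 ± 0.55). Wnt11 was higher (1.25 ± 0.25), and Wnt8a and Wnt8b were called at means under 1 TPM, Wnt8a not without NTS replicate 2 (0.88). Wnt10b was not called without PVH replicate 1 (-1.69). Axin2 was at 9.95 to 12.99 TPM (median 11.8, 10 libraries), with a log2 fold change -0.63 ± 0.05, edgeR adjusted p = 3.50e-14 that was below the size required, and Lef1 (-0.40 ± 0.14), Tcf7 (0.08 ± 0.09) and Tcf7l1 (-0.19 ± 0.13) were not called. In ACB, 6 members were called higher, against 7.30%, and 7 lower, against 5.49%. Library ranges did not overlap for 2 members, against 2.94% of all genes. Wnt2 led (log2 fold change 5.07 ± 0.33, edgeR adjusted p = 6.83e-18), followed by Wnt1 (4.17 ± 0.35), Fzd5 (1.73 ± 0.17), Tcf7 (1.30 ± 0.13), Fzd2 (1.12 ± 0.21) and, under 1 TPM in ACB, Wnt10b (2.03 ± 0.49). Fzd1 (-1.84 ± 0.15), Fzd10 (-1.83 ± 0.33), Wnt3 (-1.45 ± 0.22), Wnt5a (-1.11 ± 0.21), Wnt9b (-5.11), Wnt6 (-2.28) and Wnt11 (-2.004) were lower. Axin2 (0.27 ± 0.08), Lef1 (-0.94 ± 0.26), Tcf7l1 (-0.36 ± 0.23) and Tcf7l2 (-0.99 ± 0.39) were not called. Without ACB replicate 2, Fzd2 (0.93), Wnt5a (-0.97), Wnt6 (-1.72) and Wnt11 (-1.66) were not called, Wnt6 was at -4.34 without replicate 3, and Wnt11 was not called without ACA replicate 1 or ENT replicate 2, nor was Wnt9b without ENT replicate 3.

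In VTA, the region of midbrain dopamine neurons, 4 members were called higher, against 6.89% of all genes, and 5 lower, against 3.65%. Library ranges did not overlap for 2 members, against 0.806% of all genes. Tcf7l2 was at 29.3, 20.5 and 28.9 TPM, below the arithmetic mean of 30.2 TPM of the other regions, which PVH and DMH set, and above most of them on the log scale (log2 fold change 1.35 ± 0.30, edgeR adjusted p = 2.42e-04). Wnt5a was at 5.94, 13.7 and 8.85 TPM (log2 fold change 1.16 ± 0.16, edgeR adjusted p = 5.88e-08), and Wnt10b (2.90 ± 0.45) and Wnt8b (2.06 ± 0.49) were higher at low levels. The lower members were the ligands Wnt9b (-2.90), Wnt9a (-2.15), Wnt10a (-1.82), Wnt6 (-1.64) and Wnt4 (-1.62). Axin2 (-0.82 ± 0.10) was short of the size required, and Lef1 (-0.11 ± 0.24), Tcf7 (0.53 ± 0.15) and Tcf7l1 (0.82 ± 0.20) were not called. Without VTA replicate 1, the library with the high mitochondrial share, 8 members were called, and Wnt6 (-1.81) was not. The call of Wnt6 was also lost without VTA replicate 2 (-2.07), VTA replicate 3 (-1.17) or ACB replicate 3 (-1.52), and that of Wnt9b without ACB or ENT replicate 3.

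Other genes of the pathway were followed as 8 lists, some of which share genes, by the same test, and the median given with each list is that of its log2 fold changes. Between embryo and adult brain, 17.8% of all genes were called higher and 19.9% lower. Antagonists, which bind Wnt or its receptors outside the cell, had 8 of 17 members higher and 3 lower, at a median of 0.844. Draxin (47.3 against 0.395 TPM, 7.03 ± 0.14), Sfrp1 (49.01 against 4.96 TPM, 3.40 ± 0.11) and Dkk2 (3.29 ± 0.18) rose most. In H against the hindbrain nuclei they had 11 of 17 members higher and 3 lower, at a median of 2, beside 23.0% and 21.1% of all genes. In THy/PHy against the adult hypothalamus they had 7 of 17 members higher and 4 lower, at a median of 0.263, beside 18.2% and 20% of all genes. Polarity genes and alternative receptors had 6 of 11 members higher and 2 lower, at a median of 1.24, with Celsr1 (3.56 ± 0.15), Vangl2 (85.6 against 14.8 TPM, 3.01 ± 0.05) and Ptk7 (2.78 ± 0.05) at the top. Cytoplasmic components had 5 of 13 members higher and 0 lower, at a median of 0.706, led by Csnk1e (295 against 79.9 TPM, 1.74 ± 0.04), Dvl3 (1.40 ± 0.05) and Amer1 (1.40 ± 0.04). Nuclear cofactors had 4 of 9 members higher and 0 lower, at a median of 0.866, with Tle1 (1.81 ± 0.05), Bcl9 (1.76 ± 0.05) and Tle3 (1.65 ± 0.05).

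The other lists had fewer higher members in the embryo, or members on both sides. The R-spondin axis list held R-spondins, Lgr receptors and the ligases Znrf3 and Rnf43, which do not all act in the same direction. It had 0 of 9 members higher and 3 lower, at a median of 0.0262, with Lgr6 (-2.52 ± 0.19), Lgr5 (-1.86 ± 0.21) and Rnf43 (-1.18 ± 0.14) lower. The ligand secretion genes had 0 of 3 members higher and 2 lower, at a median of -1.05, and the lower ones were Notum (-1.37 ± 0.16), which removes the lipid from Wnt, and Porcn (22.8 against 51.7 TPM, -1.05 ± 0.08), which adds it. Genes of Wnt7 and Norrin signalling in endothelium had 0 of 4 members higher and 0 lower, at a median of 0.375. The feedback targets were mixed, with 6 of 12 members higher and 3 lower, at a median of 0.712. Sp5 (3.29 ± 0.27) and Dkk1 (3.02 ± 0.41), as well as T at low levels, had the largest changes, and Lgr5, Notum and Rnf43 were the lower ones.

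In mESC against embryonic brain, the lists had mostly lower members, beside 29.0% of all genes lower and 26.8% higher. Nuclear cofactors had 0 of 9 members higher and 6 lower, at a median of -2.04, antagonists 2 of 17 members higher and 10 lower, at a median of -2.53, cytoplasmic components 1 of 13 members higher and 7 lower, at a median of -1.10, polarity genes 3 of 11 members higher and 6 lower, at a median of -2.22, R-spondin genes 0 of 9 members higher and 5 lower, at a median of -2, and the endothelial list 0 of 4 members higher and 4 lower, at a median of -3.12. Feedback targets had 2 of 12 members higher and 7 lower, at a median of -1.79. The exception was ligand secretion (Porcn, Wls and Notum), with 2 of 3 members higher and 1 lower, at a median of 1.47. Notum, which removes the lipid from Wnt, was 1 of the higher ones and is also in the lists of antagonists and feedback targets. Among the feedback targets, Notum was at 40.4 against 1.15 TPM (log2 fold change 5.45 ± 0.24, edgeR adjusted p = 4.67e-27) and Cdx1 at 6.73 TPM, listed at 0 in every embryonic library, while Nkd1 was at 0.575 against 50.7 TPM (log2 fold change -5.92 ± 0.18, edgeR adjusted p = 1.04e-33). Feedback targets in mESC thus moved in both directions, as Axin2 moved down.

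Between adult areas, single genes of the lists stood out. Of all genes, 8.17% were called higher and 7.95% lower in cortex, and 6.11% higher and 2.74% lower in the hypothalamus. R-spondin genes had 2 of 9 members higher and 0 lower, at a median of -0.163, in cortex, with Rspo2 at 21.9 against 1.14 TPM (4.56 ± 0.16) and Rspo3 (1.70 ± 0.16). In the hypothalamus they had 2 of 9 members higher and 0 lower, at a median of 0.0511, with Rspo1 at 21.6 against 3.59 TPM (3.24 ± 0.15) and Rspo4 (3.14 ± 0.42). In the cerebellar cortex Rspo1 (-3.51 ± 0.22) and Rspo2 (-2.13 ± 0.21) were lower and Lgr4 (1.04 ± 0.04) was higher. Antagonists had 3 of 17 members higher and 3 lower, at a median of -0.064, in cortex, where Dkk3 was at 229 against 32.6 TPM (2.93 ± 0.11) and Sfrp5 at 0.321 against 13.9 TPM (-5.02 ± 0.39), and 4 of 17 members higher and 2 lower, at a median of -0.0596, in the hypothalamus, led by Sfrp5 (2.58 ± 0.19). In the cerebellar cortex Trabd2b, an inhibitor that cleaves Wnt, was at 6.97 against 0.708 TPM (3.74 ± 0.14), and the feedback target Sp5 at 4.87 against 0.464 TPM (3.62 ± 0.26). Ror1, a receptor of Wnt5a, was also higher there (3.36 ± 0.11), as were Porcn (104 against 36.7 TPM, 1.41 ± 0.05) and the corepressor Tle2 (1.74 ± 0.06). Sostdc1 was at 29.98 against 2.56 TPM in CBN (4.49 ± 0.54), the region with the highest choroid plexus marker sum. Cytoplasmic components had 1 call in the adult comparisons, Apc in cortex (1.06 ± 0.06).

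Likeness of pattern was measured as Pearson's r of log2(mean TPM + 1) over the 22 brain regions, among 18721 genes that reached 1 TPM in a region. The regions share library preparation and scaling, and the values are descriptions. The genes most like Axin2 were Tmem131 (0.919), Wbscr22 (0.912), Tia1 (0.912), Alg10b (0.911) and Zfp810 (0.909). Those most like Lef1 were Neo1 (0.930), Kcp (0.912), Sema6a (0.898), Zfp423 (0.890) and Nox4 (0.889). Those most like Tcf7l2 were Lef1 (0.883), Rgma (0.851), Edaradd (0.831), Sox13 (0.823) and Nox4 (0.820), so that the nearest gene to Tcf7l2 was another TCF/LEF factor. The genes most like Wnt7b were Khdrbs3 (0.961), Enc1 (0.928), Dynll1 (0.893), Basp1 (0.892) and Sh3rf1 (0.887). Between Lef1 and Axin2, r was 0.68 over the 22 regions and 0.36 over the 18 adult regions.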

How the data were processed

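Poly(A) RNA of frozen brain punches or cultured mESC was sequenced from strand-specific libraries as single 33-base reads. Per the labels and the study's methods, the authors used CASAVA 1.8.2 and kallisto on the GRCm38 transcriptome. They deposited estimated counts per transcript and TPM per transcript and, summed by the authors, per gene. TPM hold shares within a library, so a very abundant transcript lowers all others.

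Here, transcripts were assigned to genes by their identifiers (98.8% of 109282 matched), the estimated counts of a gene's transcripts were added up and rounded, and 1 model with 24 groups was fitted with edgeR 4.0.16 (quasi-likelihood, TMM, filterByExpr, R 4.3.3). Region means entered each of 14 contrasts with equal weight. Adjusted p are Benjamini-Hochberg values over all 19980 genes tested. For Fzd6 the matched transcripts miss up to 4.92 TPM of the deposited gene value. Depth was 9074581 to 22229582 counts per library.

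Libraries of a group were used as replicates, and no pair had identical values. The symbols and the lists of other pathway genes were chosen with earlier results of these data known. For each comparison the text names up to 8 called members per direction by size of change among those with a mean of 1 TPM or more in a compared region, always Axin2 and the TCF/LEF genes, and up to 3 called genes per list, and some members of lower level are added. A gene at 0 in all libraries on one side was tested like the others and could be called, but its fitted fold change is not printed. In list medians, such genes were set to a bound where 3 counts over the group allow one. Promoter sequences are RefSeq's (GRCm38.p6). In simulated data for the comparison of embryonic with adult brain over 19980 genes, 185 of 187 changed genes that passed the filter were called and 0 unchanged genes. The simulated libraries were independent, with the same dispersion for every gene and no differences between regions beyond the embryonic change. The simulation therefore checks the fit and cannot give the error rate in the deposited data. Alternatives were DESeq2 1.42.0, limma 3.58.1 on log2(TPM + 0.5) or log2(TPM + 0.1), no filter, the replicate number as a block, other sets of libraries and regions, and each library left out in turn. A library left out was tested at the unadjusted p that the threshold had in the full data.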

Additional observations from a re-analysis of the deposited data

Results flagged for a closer look

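In regions with 4 libraries, 134 sets of member values were looked at for a library far from the other 3, and 10 had one, where chance gives about 5% of sets. In NTS replicate 1, Lef1 was at 8.85 TPM, with the other NTS libraries at 4.81 to 5.32 TPM, and Fzd5 was at 1.41 TPM, with the others at 0.809 to 0.907 TPM. This library also had a choroid plexus marker sum of 10710 TPM, against 5.66 to 12.6 TPM in the other NTS libraries, and the part of that tissue in both values was not tested. Wnt16 was at 2.52 TPM in NTS replicate 3, with the others at 0.61 to 0.821 TPM. In the cerebellar cortex, Fzd2 was at 3.98 TPM in CUL4,5 replicate 1 (others 1.04 to 1.54 TPM), Fzd7 at 30.1 TPM in CUL4,5 replicate 3 (others 21.9 to 22.5 TPM) and Lrp6 at 22.6 TPM in CUL4,5 replicate 2 (others 20.6 to 20.9 TPM). Wnt6 was at 6.93 TPM in FL replicate 3 (others 2.36 to 3.09 TPM), a library with a meningeal and fibroblast marker sum of 120 TPM (others 70.6 to 81.1 TPM), whose part was not tested. Tcf7l1 was at 7.46 TPM in FL replicate 1 (others 5.56 to 5.80 TPM) and Wnt7b at 9.21 TPM in CENT2 replicate 1 (others 5.09 to 5.497 TPM). In the hypothalamus, Fzd1 was at 12.5 TPM in DMH replicate 2, with the others at 10.01 to 10.04 TPM.

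The change from adult to embryonic tissue differed between hypothalamus and hindbrain for 11 members, by the edgeR interaction contrast at an adjusted p under 0.05 and a difference above 1 in size. The difference, hypothalamus minus hindbrain on the log2 scale, was 7.93 for Wnt8b, 2.67 for Fzd5 and 1.00 for Wnt7a. It was -1.30 for Lef1, -1.38 for Wnt5a, -1.69 for Axin2, -1.92 for Wnt9a, -2.49 for Wnt4, -2.68 for Wnt9b, -3.61 for Fzd10 and -5.91 for Wnt1.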

How the results depend on the processing

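For the 133 member values named across the comparisons, 1157 values under other settings were counted, of which 1062 kept direction and call, 94 kept the direction and lost the call, and 1 reversed. Of the leave-one-out fits, only the smallest and the largest change of each value were counted. The largest were picked by size, which favours kept calls. The reversed value was Wnt9b in CBN, at -0.0217 by limma on log2(TPM + 0.5). Calls were lost for 3 of 133 values with DESeq2, 4 without the filter, 9 with only the compared regions fitted, 12 by limma on log2(TPM + 0.1), 28 by limma on log2(TPM + 0.5) and 10 of 30 with ARH and VMH as the hypothalamus, a setting chosen after seeing the data. They were also lost for 4 of 133 with the replicate number as a block, 1 of 63 with regions merged into broad areas and 23 of 266 counted leave-one-out values. By limma on log2(TPM + 0.5), the members called were 4 in place of 8 for hindbrain nuclei, 9 in place of 14 for cerebellar cortex and 2 in place of 7 for CBN. With only the compared regions fitted, which leaves fewer libraries, 3 in place of 5 were called for THy/PHy against M and H and 0 in place of 6 for M against H. The causes were not tested.

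Leaving out each library in turn gave 17 to 22 members called for embryonic against adult brain, 22 to 26 for mESC, 16 to 19 for THy/PHy against adult hypothalamus, 15 to 21 for H, 10 to 13 for the interaction, 5 to 7 for THy/PHy against M and H, 5 to 8 for M against H, 13 to 15 for cortex, 6 to 8 for hypothalamus, 7 to 8 for hindbrain nuclei, 13 to 14 for cerebellar cortex, 5 to 7 for CBN, 11 to 15 for ACB and 7 to 9 for VTA. Of 29 members with more than 1 library in their highest group, 18 kept that group as the highest without any 1 of its libraries.

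Deviations of libraries with the same replicate number in different regions had a median r of 0.008, with 51 of 669 pairs over 0.1. For pairs with other numbers the median r was -0.004, with 77 of 1603 over 0.1. A median over all pairs cannot tell whether some libraries with the same number share mice. With the replicate number as a block, 21 members were called for embryonic against adult brain, 23 for mESC, 19 for THy/PHy against adult hypothalamus, 18 for H, 11 for the interaction, 5 for THy/PHy against M and H, 5 for M against H, 14 for cortex, 6 for hypothalamus, 8 for hindbrain nuclei, 13 for cerebellar cortex, 6 for CBN, 13 for ACB and 9 for VTA. The highest group was the same for 34 of 37 members without mitochondrial genes in the scaling and for 30 on CPM with TMM scaling.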
